A study of Mus musculus with 8 samples.

Results

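Panels of surface and identity markers are used to recognise mesenchymal stem cells (MSCs), stromal cells with the capacity to give rise to osteoblasts, adipocytes and chondrocytes. The 10 genes described here are Ly6a, Pdgfra, Thy1, Eng, Nt5e, Cd44, Pdgfrb, Mcam, Nes and Prrx1, taken by symbol from the 53465 gene identifiers of the count table. All 10 passed the filter on low counts and were among the 14369 genes tested. The RNA-seq samples were MSCs from the hind limb bones of wild-type male C57BL/6N mice aged 3 to 5 months, cultured either at 2% oxygen (hypoxia, 4 samples) or at 21% oxygen (normoxia, 4 samples). Per the labels the cells were purified by flow cytometry on day 12. According to the methods, bone chips and cells grew at low oxygen beforehand, CD45-/TER119-/Sca-1+/CD140a+ cells were sorted, and the sorted cells were then kept at either oxygen level before RNA was taken. Sca-1 and CD140a are the products of Ly6a and Pdgfra, so both groups had been selected for these proteins before they were divided. The comparison asks how the RNA of the markers stands after culture at each oxygen level.

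No marker is particular to MSCs, and these cells are recognised by combinations. Human MSCs are usually defined by Thy1 (CD90), endoglin (CD105) and the product of Nt5e (CD73), together with CD44 and the absence of blood cell markers, whereas mouse bone MSCs are most often sorted on Sca-1 and CD140a. PDGF receptor β, MCAM (CD146) and the intermediate filament protein nestin mark stromal cells that lie along blood vessels, and PRRX1 is a homeobox transcription factor of limb mesenchyme.

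Total counts were 12898291 to 13433824 in 7 samples and 25132141 in hypoxia replicate 1. The same replicate number marked samples that departed from their groups in the same way across genes, so values from a fit blocked on that number are given where they change the call of a marker or a list count. Several genes of the endothelial and red cell lineages had few or no counts. Hba-a1, Hbb-bt and Hbb-bs of the erythroid list and Emcn and Tie1 of the endothelial list had 0 counts in every sample, and Pecam1 and Cdh5 had at most 3 counts. Of the same lists, Kdr had 1 to 10, Tek 13 to 33 and Tfrc, which most dividing cells use, 116 to 766 counts per sample. Blood cell RNA was present. Of the 10 blood markers, 8 passed the filter, and their summed level was 513 to 979 CPM (library-scaled counts) in hypoxia and 602 to 1110 CPM in normoxia. The pan-leukocyte gene Ptprc (CD45), against which the cells had been sorted, stood at 8.28 to 19.0 CPM over all samples, and Csf1r and Adgre1 of macrophages at 75.1 to 248 CPM and 64.7 to 148 CPM. In such bulk samples a smaller share of cells of a type and less RNA per cell cannot be told apart.

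The 10 markers covered a wide range of levels. As CPM per kilobase of exon, which allows genes to be compared, Ly6a was the highest at 360.2 ± 38.6 in hypoxia and 326 ± 41.1 in normoxia (means ± SD of 4 samples), above 99.3% of all tested genes. Pdgfrb followed at 108 ± 8.33 and 97.6 ± 6.17, then Thy1 at 92.1 ± 23.4 and 69.7 ± 20.5, Cd44 at 36.9 ± 10.8 and 60.7 ± 17.0, and Prrx1 at 35.3 ± 2.77 and 33.6 ± 3.67. These 4 genes lay above at least 91.7% of tested genes. Eng at 21.4 ± 2.14 and 17.7 ± 2.195 and Pdgfra at 17.4 ± 2.53 and 20.5 ± 1.97 formed a middle level. Nt5e at 1.22 ± 0.057 and 1.86 ± 0.27, Nes at 1.10 ± 0.17 and 1.08 ± 0.24 and Mcam at 1.152 ± 0.25 and 0.956 ± 0.20 were low, above 23.4% to 29.7% of tested genes.

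Over the 8 samples the order had 3 clear steps. The lowest value of Ly6a (289.9) was above the highest of Pdgfrb (118), the lowest of Prrx1 (30.6) above the highest of Eng (23.5), and the lowest of Pdgfra (15.02) above the highest of Nt5e (2.05), all as CPM per kilobase. The other neighbours overlapped. In particular, the gene of the sorting marker CD140a was counted far less per kilobase than its relative Pdgfrb. With the length of the longest transcript in place of all exons, Thy1 and Pdgfrb, Pdgfra and Eng, and Nes and Mcam exchanged places.

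**Figure D1:**
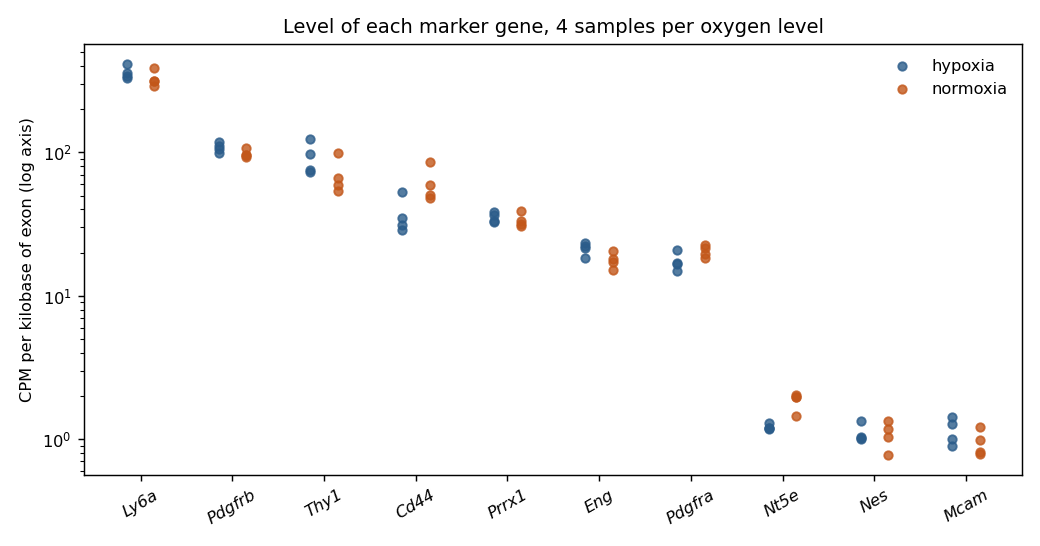
Level of the 10 marker genes as CPM per kilobase of exon on a log axis, with 1 point per sample (4 hypoxia, blue, and 4 normoxia, orange), ordered by mean level. Ly6a stands at 289.9 to 416 in all samples, whereas Nt5e, Nes and Mcam stand at 0.775 to 2.05.

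Between the oxygen levels, 3 of the 10 markers changed with an adjusted p-value under 0.05, where 34.6% of all tested genes did so. Cd44 and Nt5e were higher in normoxia (18.0% of all genes were called higher) and Eng was lower (16.5% called lower). The other 7 did not pass. The replicate block gave 7 of the 10 markers, where 46.0% of all genes passed, with Pdgfra added to the higher genes (23.3% of all genes) and Ly6a, Thy1 and Pdgfrb to the lower ones (22.7%). The median log2 change of the 10 markers was -0.11 against 0.0049 for all tested genes. Hypoxia and normoxia values were fully separate for 1 marker, Nt5e, and for 32.6% of all tested genes. Within the 4 pairs of same-numbered samples, 7 markers went the same way in every pair, 3 higher and 4 lower in normoxia, and 54.5% of all tested genes did so.

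**Figure D2:**
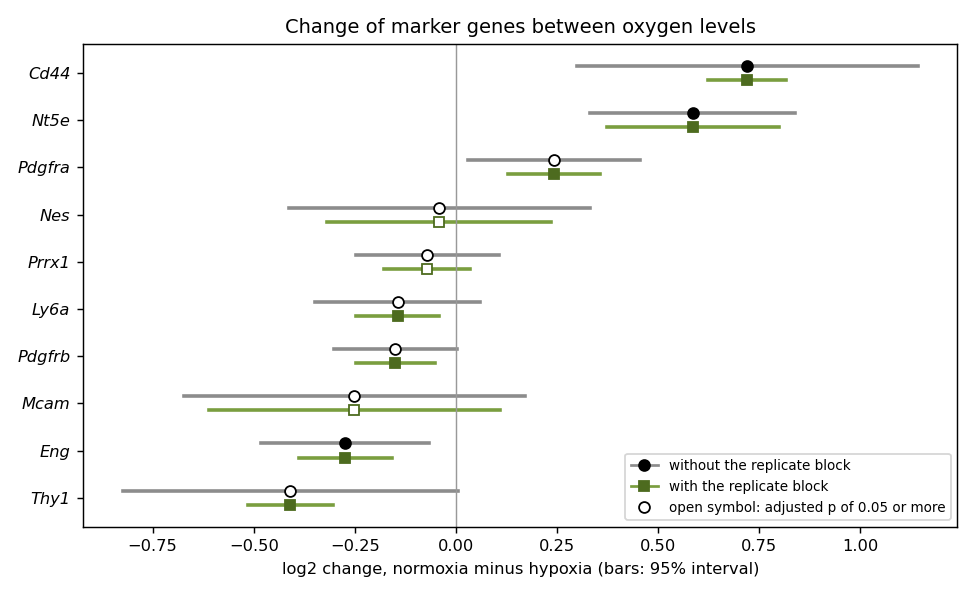
Log2 change of each marker gene (normoxia minus hypoxia) with its 95% interval, from the fit without the replicate block (circles) and with it (squares), over 4 samples per group. Filled symbols have an adjusted p-value under 0.05, which holds for 3 genes without the block and 7 with it, and Cd44 and Nt5e lie farthest to the right.

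Cd44 encodes the main cell surface receptor for hyaluronan, a long sugar chain of the matrix. It had 356, 211, 237 and 195 CPM in hypoxia replicates 1 to 4 and 577, 341, 399 and 327 CPM in normoxia replicates 1 to 4. Replicate 1 was the highest of its group at both oxygen levels, and hypoxia replicate 1 lay within the normoxia range, so that the groups overlapped. Every pair nonetheless rose by nearly the same amount, with differences of 0.69 to 0.75 on the log2 scale. Cd44 thus rose 1.65-fold (95% interval 1.23 to 2.21), a log2 change of 0.72 ± 0.19 (SE, limma-trend adjusted p = 0.013). CD44 is also carried by blood cells. The summed blood list was higher in normoxia in all 4 pairs, at 513 and 602, 704 and 715, 979 and 1110, and 810.2 and 834 CPM in hypoxia and normoxia of pairs 1 to 4. Its member Lyz2 was also higher in all 4 pairs, at 261 and 400, 340 and 466, 436 and 691, and 377 and 536 CPM. Csf1r was lower in all 4 pairs, and 6 of the 8 tested blood markers had negative changes. Replicate 1, the highest for Cd44 in either group, was the lowest for the summed list. Replicate 3, the highest for that sum, was the next highest for Cd44. The part of blood cells in the Cd44 change was not tested.

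Nt5e encodes the ecto-nucleotidase CD73, which releases adenosine from AMP at the cell surface. It was counted at 11.2, 10.3, 10.3 and 10.2 CPM in hypoxia and at 17.0, 12.5, 17.6 and 16.9 CPM in normoxia, from 129 to 269 counts per sample. All normoxia values were above all hypoxia values, and normoxia replicate 2 was the nearest to hypoxia. Nt5e rose by 0.59 ± 0.12 on the log2 scale (SE, limma-trend adjusted p = 0.0024), and the 95% interval of the fold was 1.26 to 1.79. The pair differences ran from 0.27 in pair 2 to 0.76 in pair 3.

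Because Cd44 and Nt5e were both called higher in normoxia, the promoter windows of both are shown. RefSeq windows (GRCm38.p6, 250 bases before the start site and 50 after it) were found for 7 of the 10 markers: Pdgfra, Eng, Nt5e, Cd44, Mcam, Nes and Prrx1. The windows were searched on both strands for ACGTG and GCGTG, the core letters bound by hypoxia-inducible factors, and for the GC box GGGCGG. In the windows shown no core overlaps a GC box, and the GC boxes of Nt5e lie as 2 pairs whose letters overlap each other. A core was found in 2 of the 7 windows, those of Nt5e and Cd44, and in 43.8% of all 32851 windows of this length. Capitals mark the core letters, which begin 138 bases before the RefSeq start site in Nt5e and 29 bases before it in Cd44, on the strand of the gene in both. The annotation used for exon lengths starts Nt5e further upstream, at base 88327197, so that its window lies inside the gene as annotated there.
Nt5e, chr9:88327359-88327658, plus strand: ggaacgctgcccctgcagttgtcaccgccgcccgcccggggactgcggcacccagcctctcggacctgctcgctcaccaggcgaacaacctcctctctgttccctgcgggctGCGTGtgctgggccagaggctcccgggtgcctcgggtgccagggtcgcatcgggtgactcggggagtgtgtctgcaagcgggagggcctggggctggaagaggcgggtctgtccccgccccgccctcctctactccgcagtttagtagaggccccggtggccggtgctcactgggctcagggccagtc
Cd44, chr2:102901616-102901915, minus strand: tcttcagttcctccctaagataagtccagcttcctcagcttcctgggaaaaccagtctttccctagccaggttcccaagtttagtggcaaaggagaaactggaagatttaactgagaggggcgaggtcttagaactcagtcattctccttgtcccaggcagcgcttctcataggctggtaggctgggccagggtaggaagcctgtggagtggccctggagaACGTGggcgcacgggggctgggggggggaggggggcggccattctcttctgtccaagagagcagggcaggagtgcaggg
The Nt5e window also held 4 GC boxes and that of Cd44 held 1, as 35.7% of all windows hold at least 1. Mcam held 5 and Nes 2, and the windows of Pdgfra, Eng and Prrx1 held none of these motifs. A match in the letters is a description and not a binding site.

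Eng encodes endoglin, a co-receptor for ligands of the TGF-β family. It had 74.6, 89.9, 87.1 and 94.9998 CPM in hypoxia and 61.3, 70.01, 72.8 and 82.9 CPM in normoxia. The lowest hypoxia value, that of replicate 1, fell inside the normoxia range, and replicate 1 was the lowest sample of both groups. Eng changed by -0.27 ± 0.096 on the log2 scale (SE, limma-trend adjusted p = 0.043), a fold of 0.827 with a 95% interval of 0.716 to 0.955, and was lower in 4 of 4 pairs. The call is close to the threshold. It was lost when any of 6 samples was left out, namely hypoxia replicates 2, 3 or 4 or normoxia replicates 1, 2 or 3 (adjusted p = 0.068 to 0.12), and when trends with GC content and length were removed without the block, where the change was -0.12 (adjusted p = 0.32). The gene Fpgs overlaps Eng on the opposite strand by 61 exonic bases, and had 1813 counts in all over the 8 samples.

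Thy1, a small surface glycoprotein held by a lipid anchor, varied widely within each group. It had 291, 369, 225 and 219 CPM in hypoxia and 200.1, 297, 178 and 160.2 CPM in normoxia. Replicate 2 was the highest in both groups, and the groups overlapped widely. Within pairs Thy1 was lower in normoxia every time, by 0.31 to 0.54 on the log2 scale. Between the groups the log2 change was -0.41 ± 0.19 (SE), which did not pass (limma-trend adjusted p = 0.12). Blocking on the replicate number lowered the standard error to 0.051, and Thy1 then passed (adjusted p = 6e-07). Without the block, the 95% interval of the fold ran from 0.565 to 1.00. The unblocked change was -0.61 without normoxia replicate 2 and then passed (adjusted p = 0.015), but it was -0.26 without hypoxia replicate 2 (adjusted p = 0.30) and -0.24 with GC and length trends removed (0.41).

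**Figure D3:**
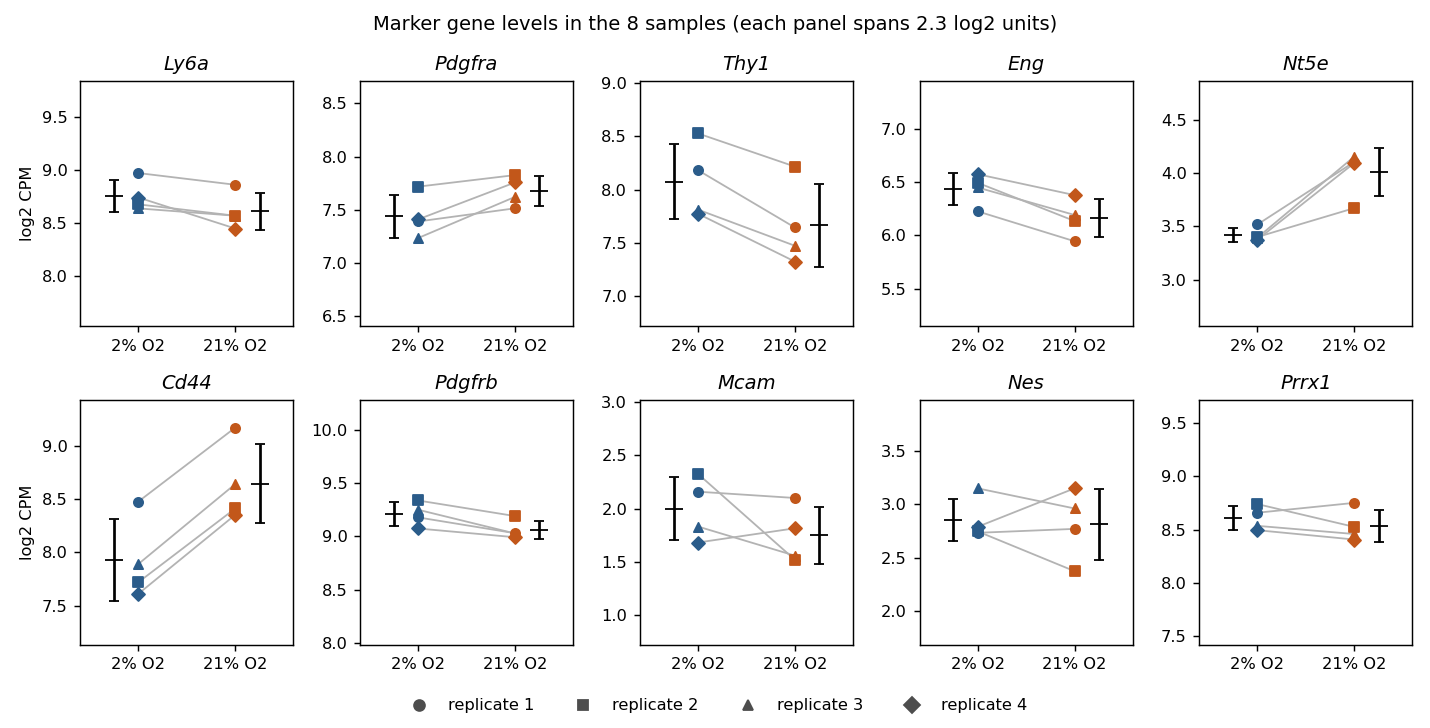
Log2 CPM of each marker gene in the 4 hypoxia (2% O2) and 4 normoxia (21% O2) samples, with lines between samples of the same replicate number, 1 symbol per number, and black bars for the mean ± SD of each group. All panels span the same log2 range, and the lines of Cd44 run nearly parallel while those of Mcam and Nes cross.

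The RNAs of both sorting markers were counted at either oxygen level. By mean CPM per kilobase over the 8 samples, Ly6a lay above 99.3% and Pdgfra above 84.6% of all tested genes. Ly6a, whose product Sca-1 is another lipid-anchored surface protein, had 501, 409, 398 and 428 CPM in hypoxia and 465, 379.7, 379.8 and 349 CPM in normoxia. The groups overlapped, and hypoxia replicate 1 and normoxia replicate 1 were the highest. Its log2 change of -0.14 ± 0.093 (SE) did not pass (limma-trend adjusted p = 0.26). Ly6a was lower in 4 of 4 pairs, by 0.069 to 0.29, and passed in the blocked fit (adjusted p = 0.021). The unblocked change was -0.24 without normoxia replicate 1 (adjusted p = 0.046) and -0.072 without hypoxia replicate 1 (adjusted p = 0.54).

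Pdgfra, the receptor tyrosine kinase for PDGF-AA and related ligands, went the other way. It had 168, 210.4, 151 and 169.97 CPM in hypoxia and 183, 227, 197 and 216 CPM in normoxia, and hypoxia replicate 2 lay inside the normoxia range. Its log2 change of 0.24 ± 0.098 (SE) did not pass (limma-trend adjusted p = 0.075). Pdgfra was higher in 4 of 4 pairs, by 0.11 to 0.39, and passed in the blocked fit (adjusted p = 0.00087). The unblocked change was 0.33 without hypoxia replicate 2 (adjusted p = 0.0085), 0.17 without hypoxia replicate 3 and 0.18 without normoxia replicate 2 (adjusted p = 0.22 for both). An annotated antisense RNA that overlaps it, Gm42802, had 0 counts in every sample.

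Pdgfrb, the related receptor for PDGF-BB, had 579, 647, 609 and 539 CPM in hypoxia and 523, 584, 522 and 509 CPM in normoxia. The groups overlapped, and Pdgfrb was lower in 4 of 4 pairs by 0.082 to 0.22. Its log2 change was -0.15 ± 0.070 (SE, limma-trend adjusted p = 0.12), and it passed in the blocked fit (adjusted p = 0.012). With the trends with GC content and length removed beside the block, the change was -0.054 and did not pass (adjusted p = 0.31).

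Ratios within a library do not rest on how libraries are scaled. They were not corrected for trends with GC content and length. With these trends removed, the log2 changes of Pdgfra and Pdgfrb were 0.18 and -0.054. The ratio of Pdgfra to Pdgfrb counts per kilobase was 0.158, 0.178, 0.135 and 0.172 in hypoxia and 0.191, 0.212, 0.206 and 0.232 in normoxia. All normoxia ratios were above all hypoxia ratios, with means of 0.161 ± 0.019 and 0.2104 ± 0.017 (SD, n = 4 each), a log2 difference of 0.39 (two-sided exact permutation test over 70 assignments, p = 0.0286, the smallest possible, and 0.0572 adjusted over 2 ratios). This ratio therefore did not pass after adjustment, although it was higher in 4 of 4 pairs. Without hypoxia replicate 3 or normoxia replicate 4 the unadjusted exact p was 0.0571. The ratio of Ly6a to Pdgfra was 21.0 ± 3.62 in hypoxia and 16.1 ± 3.53 in normoxia. It overlapped between the groups (exact permutation p = 0.114, and 0.114 adjusted) and was lower in 4 of 4 pairs, by 0.22 to 0.64 on the log2 scale.

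**Figure D4:**
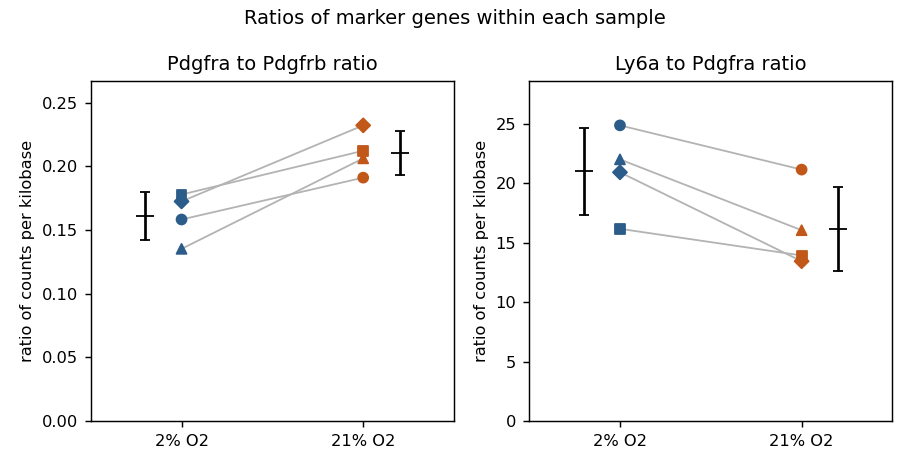
Ratio of Pdgfra to Pdgfrb (left) and of Ly6a to Pdgfra (right), as counts per kilobase of exon within each sample, with lines between samples of the same replicate number, 1 symbol per number, and the mean ± SD of 4 samples in black. The 4 normoxia ratios of Pdgfra to Pdgfrb (0.191 to 0.232) lie above the 4 hypoxia ratios (0.135 to 0.178).

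Mcam and Nes, the other genes linked with vessel-side cells, were counted far less than Pdgfrb. Mcam, an adhesion protein, had 102, 60, 43 and 39 counts in hypoxia and 55, 37, 38 and 44 counts in normoxia. Its log2 change of -0.25 had a 95% interval of -0.67 to 0.17 (limma-trend adjusted p = 0.35, blocked 0.25), and pair 2 fell by 0.81 whereas pair 4 was higher by 0.13. Nes had 154, 81, 111 and 87 counts in hypoxia and 89, 69, 105 and 115 counts in normoxia. Its log2 change was -0.041 with a 95% interval of -0.41 to 0.33 (adjusted p = 0.88), and 2 pairs were higher and 2 lower. Both intervals include 0 and also the change of -0.27 measured for Eng.

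Prrx1 changed little. It had 404, 427, 371 and 360.3 CPM in hypoxia and 430.4, 368, 351 and 339 CPM in normoxia, with overlapping groups. Its log2 change was -0.072 with a 95% interval of -0.25 to 0.11 (limma-trend adjusted p = 0.54, blocked 0.27), and the interval as folds ran from 0.842 to 1.08. Removing trends with GC content and length moved the change to -0.25, which passed (adjusted p = 0.029, blocked 6e-05). Prrx1 had the lowest GC content of the markers, 43.6%, and Eng the highest, 57.4%.

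The genes around the markers were then counted by list. Of the 95 genes in 7 lists, 74 were tested, of which 18 were higher and 19 lower in normoxia, 50% against the 34.6% of all genes, and their median log2 change was -0.081. With the replicate block 52 passed, 70.3% against 46.0% of all genes. The lists were drawn up with earlier results of these data known, so these shares are a description.

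Genes of hyaluronan, the ligand of CD44, included several that rose. Of the 11 tested, 5 rose, 1 fell and 5 did not pass, where 34.6% of all genes passed. With the replicate block 5 rose and 2 fell, where 46.0% of all genes passed. Has2, which encodes a hyaluronan synthase, rose from 31.1 ± 5.51 to 64.7 ± 9.54 CPM (mean ± SD of 4 samples), a log2 change of 1.05 (limma-trend adjusted p = 0.00016). Hmmr, which encodes another hyaluronan-binding protein that also acts at the mitotic spindle, rose by 0.93 (adjusted p = 0.0050), and Cemip, needed for hyaluronan breakdown, rose by 0.55 (0.025). The gene that fell without the block was Ezr, for ezrin, which links CD44 to the cell cortex (-0.27, adjusted p = 0.018). Of its relatives in the list, Rdx rose by 0.43 on the log2 scale (limma-trend adjusted p = 0.00078) and Msn did not pass (adjusted p = 0.48).

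Genes of the adenosine pathway moved in both directions. Of the 9 genes tested, 3 rose, 4 fell and 2 did not pass, where 34.6% of all genes passed. Enpp1, which encodes an ecto-enzyme that makes AMP from ATP, rose from 27.1 to 36.6 CPM (log2 change 0.43, limma-trend adjusted p = 0.047). Ada (0.45, adjusted p = 0.0083) and Adk (0.24, adjusted p = 0.031) also rose, and Slc29a1 fell (-0.60, adjusted p = 0.00011). Entpd2, Entpd3 and Entpd1 (CD39), which encode ecto-enzymes that degrade ATP and ADP, had log2 changes of -1.20, -1.01 and -0.70 (limma-trend adjusted p = 0.0045, 0.014 and 0.021). These Entpd genes were low, at 4.74 ± 1.61, 2.91 ± 1.06 and 4.15 ± 0.86 CPM in hypoxia and 1.91 ± 0.56, 1.324 ± 0.41 and 2.48 ± 0.64 CPM in normoxia (means ± SD of 4 samples). Entpd1 is also an enzyme of leukocytes. The adenosine receptor gene Adora1 had 0 counts in every sample.

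Of the ligands of the PDGF receptors and related receptor genes, 2 of 6 tested rose and 4 did not pass, a share close to the 34.6% of all genes. The genes that rose were Pdgfa, from 20.1 ± 1.05 to 26.3 ± 1.31 CPM (log2 change 0.39, limma-trend adjusted p = 0.0022), and Pdgfc, from 39.8 ± 4.38 to 47.8 ± 4.42 CPM (0.26, adjusted p = 0.040). With the replicate block 3 rose and 2 fell, where 46.0% of all genes passed. Those that fell were Pdgfrl and Csf1r, which is also a macrophage marker.

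Among 12 tested partners of endoglin, 2 rose, 3 fell and 7 did not pass, where 34.6% of all genes passed. With the replicate block 3 rose and 4 fell, where 46.0% of all genes passed. Acvrl1, which encodes the type I receptor ALK1 that pairs with endoglin, fell from 29.3 ± 6.27 to 18.9 ± 2.35 CPM (log2 change -0.61, limma-trend adjusted p = 0.0065). Tgfb1 fell by 0.46 and Tgfb3 rose by 0.41 on the log2 scale (adjusted p = 0.013 and 0.047). Gdf2 and Bmp10, the genes of the ALK1 ligands, had 0 counts in every sample.

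Of the Ly6 family, 3 of 12 genes were tested and 2 fell, where 34.6% of all genes passed. Ly6c1 fell from 119.8 ± 13.3 to 73.0 ± 9.25 CPM (log2 change -0.71, limma-trend adjusted p = 0.00032) and Ly6e from 136 ± 9.36 to 89.2 ± 7.89 CPM (-0.61, adjusted p = 0.00016), whereas Lynx1 stayed at 85.9 and 89.5 CPM (adjusted p = 0.52). Ly6 genes are close copies, and whether reads that map to several of them were counted is not stated, which makes the level of Ly6a uncertain to that extent.

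Of 6 tested partners of nestin, 3 fell and 3 did not pass, where 34.6% of all genes passed. With the replicate block 4 fell, where 46.0% of all genes passed. The genes that fell without the block were Des (-0.74, from 6 to 33 counts per sample), Plec (-0.34) and Cdk5 (-0.24). Their limma-trend adjusted p-values were 0.033, 0.0098 and 0.029. In the blocked fit with GC and length trends removed, none of the 3 passed. There Des had a log2 change of -0.60 (adjusted p = 0.081), Plec of -0.048 (0.38) and Cdk5 of -0.14 (0.14). Vim, for vimentin, the main intermediate filament protein of mesenchyme, had 5746 CPM in hypoxia and 5225 CPM in normoxia (adjusted p = 0.30). In the blocked fit with GC and length trends removed, Vim passed with a log2 change of -0.24 (limma-trend adjusted p = 0.00036). Synm (-0.36, adjusted p = 2.8e-05) and Lmna (0.15, adjusted p = 0.0035) passed there too.

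The widest list held 30 other stromal and stem cell markers. Of the 27 tested, 6 rose, 6 fell and 15 did not pass, where 34.6% of all genes passed. With the replicate block 8 rose and 12 fell, where 46.0% of all genes passed. Grem1, a BMP antagonist that marks skeletal stem cells, rose from 24.5 ± 4.34 to 59.0 ± 12.2 CPM (log2 change 1.26, limma-trend adjusted p = 0.00013). Cd248 (endosialin), a stromal surface protein, fell from 554 ± 76.3 to 276 ± 48.3 CPM (-1.01, adjusted p = 0.00016). Cd200 fell by 0.87 on the log2 scale, from 9 to 37 counts per sample (adjusted p = 0.033).

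**Figure D5:**
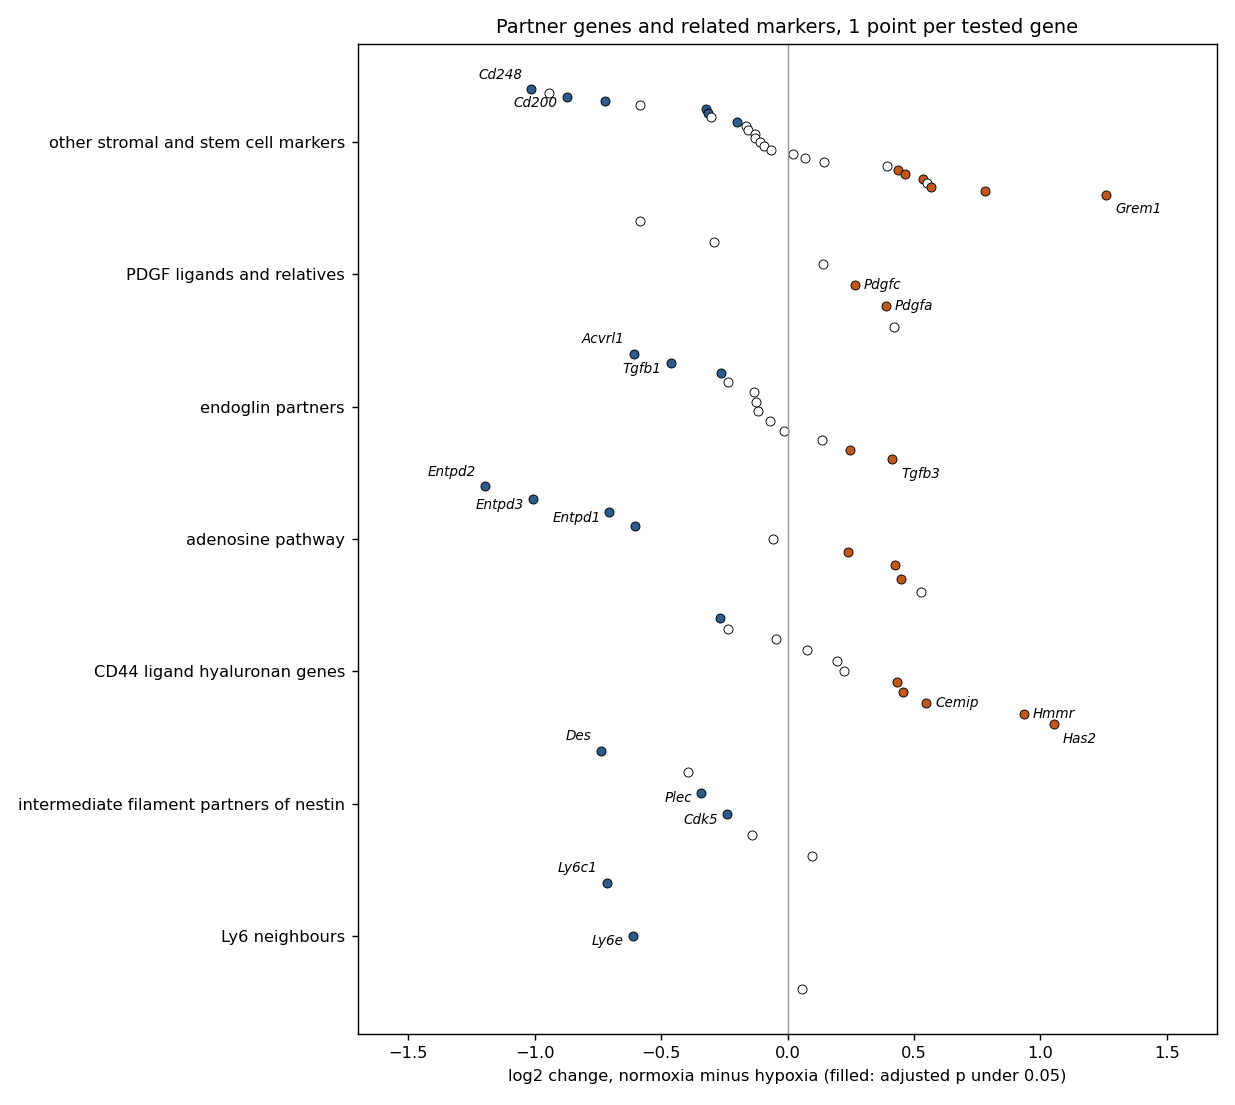
Log2 change (normoxia minus hypoxia) of each tested gene in the 7 lists of partners and related markers, from 4 samples per group, with filled symbols for an adjusted p-value under 0.05 (orange higher, blue lower in normoxia). Named are up to 3 called genes per list with the largest changes, among them Grem1 and Has2 at the right and Entpd2 and Entpd3 at the left.

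Finally, the genes whose profile over the 8 samples was most like that of the sorting markers were looked up among 9387 genes with a mean of at least 3 log2 CPM. Likeness was the root mean square difference of log2 CPM after each gene was centred. Those named for Ly6a are Cryab (0.054) and Gm12184 (0.066), where the median gene differed by 0.23. For Pdgfra they were Phldb2 (0.051), Fgfrl1 (0.052) and Zkscan3 (0.053), with a median of 0.25. Such profiles include both the oxygen level and what the samples share by number, and some genes among so many are close to any profile.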

How the data were processed

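RNA-seq was carried out on 4 hypoxia and 4 normoxia samples of bone MSCs. The authors mapped single-end reads to mm10 (Ensembl annotation of GRCm38) with zUMIs and STAR, counted them with featureCounts and deposited raw counts per gene, 1 column per sample. Strand and multi-mapping settings are not given in the sources used here. Samples were grouped by their titles. The members and lists were chosen with earlier results of these data known.

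Symbols, positions and exon lengths came from GENCODE M21 (GRCm38), which matched 53360 identifiers. Genes were filtered with filterByExpr in edgeR 4.0.16 (minimum count 5), which left 14369 genes with 99.9% of the counts. Log2 CPM values (TMM factors, prior count 3) were compared with limma-trend (limma 3.58.1, R 4.3.3), with Benjamini-Hochberg adjustment over all tested genes calling genes under 0.05. Changes are given as normoxia minus hypoxia on the log2 scale, and those of genes with few counts are understated by the prior count. CPM values were scaled by the same factors. A floor of 3 counts equals 0.125 to 0.241 CPM and covers counting error only. The study describes the 4 samples of a group as biologically independent replicates. Correlations of same-numbered samples in their deviations from the group means, across genes, were 0.47, 0.28, 0.25 and 0.17, all over 0.1, so the numbers were taken as pairs. No samples of a group agreed within sampling noise (chi-square per degree of freedom of at least 3.67).

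All 10 markers were named, and from each list up to 3 genes with an adjusted p-value under 0.05 and the largest change. Ezr, Rdx, Msn, Adora1, Enpp1, Ada, Adk, Slc29a1, Pdgfrl, Rgs5, Lpl, Gdf2, Bmp10, Lynx1, Vim, Synm, Lmna and the blood, erythroid and endothelial markers given with values were chosen after their values were seen. Alternatives were the edgeR quasi-likelihood test, DESeq2 1.42.0, limma-voom, other scalings, filters, prior counts and thresholds, a replicate block, removal of GC and length trends (splines with 5 degrees of freedom, for 14353 genes), the 20 most counted genes left out, and each sample left out. The fits were tested on simulated data without a replicate effect, which cannot show how the blocked fit treats paired samples. Some genes that these rules would name are not reported here.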

Additional observations from a re-analysis of the deposited data

Results flagged for a closer look

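Over both groups, 26 sets of 4 values were examined for 1 value that stands off from the other 3 (the gap to its nearest neighbour over the range, against Dixon's critical value of 0.829). 3 were found, where chance gives about 1.3, or 1 in 20. Nt5e in normoxia replicate 2 was 3.67 log2 CPM against 4.09 to 4.16 in the other normoxia samples. Without this sample the Nt5e change was 0.69 and passed (limma-trend adjusted p = 0.00095). Nes in hypoxia replicate 3 was 3.15 log2 CPM against 2.73 to 2.79. Hypoxia replicate 1 was sequenced to 25132141 counts, the others of its group to between 12929564 and 13219647, and without this sample 3 markers passed.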

How the results depend on the processing

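Of 220 values (10 markers, 22 alternatives), 189 kept direction and side of the threshold, 13 passed only under the alternative, 12 passed only in the reported fit and 6 changed sign. Sign changes were in Nes (0.045 with total counts only, 0.072 with the GC and length correction, alone and with the replicate block, and -0.16 to 0.094 with single samples left out, positive without hypoxia replicate 3 or normoxia replicate 2) and in Prrx1 (0.017 with total counts only), none of them past the threshold. Nt5e passed in all 22 alternatives and Cd44 in 21. Cd44 passed narrowly with the GC and length correction (change 0.56, limma-trend adjusted p = 0.049), with DESeq2 (0.047) and without hypoxia replicate 4 (limma-trend, 0.046). The exception for Cd44 was an adjusted p of 0.01. At that threshold 1 marker, 22 genes of the further lists and 2925 of all genes passed. With the replicate block 7 markers and 6610 of all genes passed. With the GC and length correction added, 7 markers (without Pdgfrb and with Prrx1) and 6202 of 14353 genes passed. Leaving out single samples gave 2 to 3 markers, 28 to 44 genes of the further lists and 3838 to 5423 of all genes. The block changed no call of a marker other than those named in the text. With total counts only, 69.6% of called genes were higher against 52.2%. The log2 ratio difference of Pdgfra to Pdgfrb, 0.39, had p = 0.125 by exact sign-flip permutation over the pairs in place of the replicate block, the smallest value that 4 pairs allow, and was 0.31 to 0.44 with single samples left out. That of Ly6a to Pdgfra was -0.52 to -0.30. Eng was not called with limma-voom (0.050), total counts only (0.17), no filter (0.055) or the GC and length correction. Causes were not tested. Mcam and Nes had 37 to 154 counts per sample.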

Other observations

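Markers of cells that MSCs can form, and of vessel-wall cells, were counted in the same fit, and these lists too were chosen with earlier results known. Of all tested genes 34.6% passed, and 46.0% with the replicate block. Of 7 tested pericyte and smooth muscle genes, 3 fell and 4 did not pass, and with the block 5 fell and 1 rose. Myh11, Acta2 and Cnn1, all genes of the contractile apparatus, had log2 changes of -1.03, -0.49 and -0.41 (limma-trend adjusted p = 0.0077, 0.0029 and 0.042), and the summed level of the list was 3266 to 4452 CPM in hypoxia and 2496 to 2938 CPM in normoxia. Rgs5, a pericyte gene, had a log2 change of 0.71 that passed only with the block (adjusted p = 0.056, and 0.0041 blocked). Of 5 tested osteoblast genes 3 fell, or 4 with the block, and their summed level, nearly all from Col1a1, was 49961 to 58552 CPM in hypoxia and 30508 to 33118 CPM in normoxia. Of 4 tested cartilage genes 2 fell, with 3 in the blocked fit. Sox9 fell by 0.58 and Col2a1 by 0.33 on the log2 scale (adjusted p = 0.00071 and 0.023). Of 5 tested fat cell genes Cebpa fell by 0.87 (adjusted p = 0.0022) and 4 did not pass, of which Lpl, at a log2 change of 0.70, was called with the block (adjusted p = 0.075, and 7.7e-07 blocked).

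Of the 8 tested blood markers, Lyz2 of macrophages rose by 0.56 and Cd34 fell by 1.25 on the log2 scale (adjusted p = 0.022 and 0.00013). Csf1r, Itgam and Cd68 had log2 changes of -0.59, -0.46 and -0.28, which passed only with the block (blocked adjusted p = 6.7e-09, 0.0011 and 0.0028), and 6 of the 8 blood markers had negative changes. Cd34, which mouse stromal cells also carry, stood at 38.5 to 60.2 CPM in hypoxia and 15.7 to 23.5 CPM in normoxia, with no overlap. Of the endothelial list 2 genes were tested and neither passed. The only tested gene of the erythroid list, Tfrc, is a transferrin receptor that most dividing cells use.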
